A study of Isoetes sinensis with 3 samples.

Results

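Chromosomes 22 and 21 of Isoetes sinensis, a tetraploid quillwort of the lycophytes, are described here through the positions of their annotated genes. All gene features that the annotation placed on either pseudochromosome were taken, which gave 2772 genes on chromosome 22 and 2584 on chromosome 21, or 5356 of 57303 genes (9.35%). The pair was chosen because its lengths are the most unequal among the 11 pairs of pseudochromosomes, so that inequality is a description and not a finding. High ranks below in measures of excess length, such as wide gaps or summed intervals, follow at least in part from this choice. The 3 labelled samples are total RNA of root, shoot and a tissue that the labels call sporophyte and the methods call sporangia, with 1 library per tissue and no treatment named. The methods give a harvest site in Zhejiang Province for shoot material, and do not state where the plants for RNA came from. RNA from these tissues served to annotate the genome, and the annotation is 1 set of coordinates on the study's own assembly that holds no value per tissue. No tissues were therefore compared, read depth was not analysed here, and no value below has a replicate.

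In a polyploid plant, each chromosome set brings its own copy of most genes, and chromosomes descended from the same ancestral chromosome are called homoeologous. Homoeologous copies often keep the order of their genes and the lengths of their coding exons for a long time, while introns and the DNA between genes change faster. In most land plants the DNA between genes is largely made of repeats, above all long terminal repeat retrotransposons, and chromosomes of like gene content can differ in length through it or through segments that 1 of them gained or lost. The genes named below carry only identifiers in the annotation, with no symbol or function, so they serve as landmarks.

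Chromosome 22 reached 109 Mb to the end of its last gene (109030419 bp), against 90.9 Mb on chromosome 21 (90875446 bp). The difference was 18.2 Mb, and in the other 10 pairs the longer chromosome exceeded the shorter by 1.86 to 11.3 Mb. Chromosomes can extend past their last genes, so both values are minimum lengths. Nearly all of the difference lay outside genes. Gene bodies covered 8.28 Mb of chromosome 22 and 7.98 Mb of chromosome 21, so that they accounted for 0.293 Mb, or 1.62% of the difference. Sequence between genes accounted for the other 17.9 Mb (98.4%), with 101 Mb on chromosome 22 and 82.9 Mb on chromosome 21. A high share is not particular to this pair, since gene bodies are a small part of either chromosome. In the other 10 pairs, too, sequence between genes carried most of the length difference. It carried 3.05 of 3.11 Mb for chromosomes 11 and 12, and 4.42 of 5.33 Mb for chromosomes 6 and 5. For chromosomes 1 and 2 it exceeded the length difference, with 2.26 against 1.87 Mb. Within genes, summed introns differed by 0.199 Mb and summed CDS, the coding part of the exons, by 0.0897 Mb. The 188 additional genes of chromosome 22 placed the pair at the third rank of 11 by gene number difference, below its first rank by length. Chromosome 22 held 25.4 genes per Mb, the lowest value of the 22 pseudochromosomes, and chromosome 21 held 28.4. Since the 11 pairs are the only units, a rank among them is given as a description. The smallest one-sided p that a rank among 11 could give is 0.0909.

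The gaps between neighbouring genes were wider on chromosome 22, above all in the upper part of their distribution. The mean gap was 36715 bp on chromosome 22 and 31899 bp on chromosome 21, and its ratio of 1.15 was the highest of the 11 pairs (0.948 to 1.10 in the other 10). The median gap was 22082 bp on chromosome 22 and 20589.5 bp on chromosome 21, a ratio of 1.07 that was exceeded in 1 other pair (1.12). The lower quartile was nearly the same, with 5877 bp on chromosome 22 and 6008 bp on chromosome 21. The 90th percentile was 86877 bp on chromosome 22, against 76016 bp on chromosome 21.

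Long gaps carried most of the summed difference. Gaps of at least 100 kb numbered 203 on chromosome 22 (7.40% of its 2744 gaps) and 128 on chromosome 21 (5.0% of 2560), where such gaps made up 5.11% of all gaps on the 22 pseudochromosomes. They summed to 33.2 Mb on chromosome 22 and 18.9 Mb on chromosome 21, which was 74.9% of the difference of 19.1 Mb in summed gap length. Chromosome 22 had 38 gaps of at least 200 kb and chromosome 21 had 14. In contrast, gaps under 50 kb contributed almost nothing in sum: those of 25 to 50 kb, for example, summed to 21.3 Mb on chromosome 22 and 21.5 Mb on chromosome 21. The difference of 75 in the number of gaps of at least 100 kb was the highest of the 11 pairs, and the other 10 ran from -5 to 32.

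**Figure D1:**
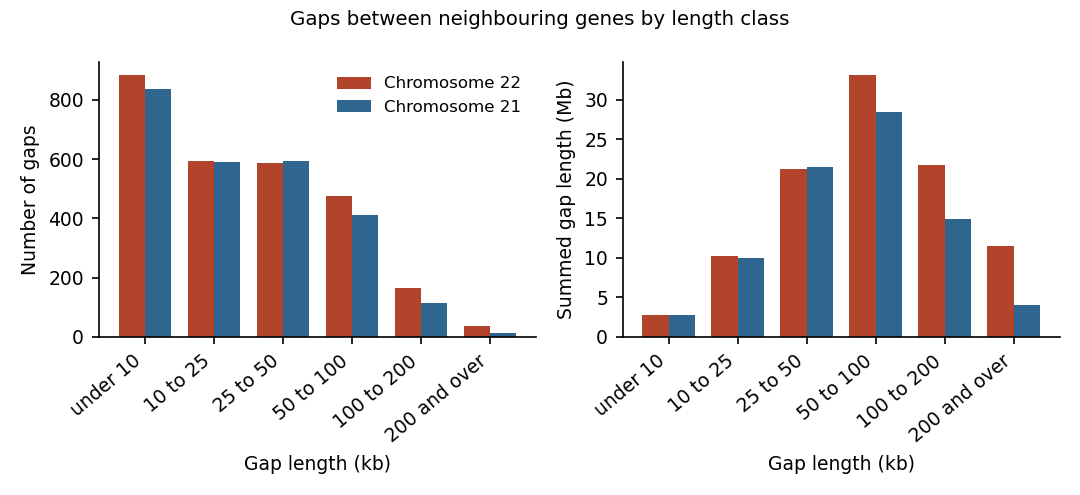
Number (left) and summed length in Mb (right) of the gaps between neighbouring genes, by gap length class in kb, on chromosome 22 (red) and chromosome 21 (blue). The bars are of similar height up to 50 kb and part above it, with 38 gaps of at least 200 kb on chromosome 22 and 14 on chromosome 21.

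The 3 longest gaps of each chromosome lay in different places. On chromosome 22, the longest measured 730 kb and lay between evm.TU.Chr22.5453 and evm.TU.Chr22.5460 (108289377 to 109019681), next to the end of the chromosome. The following 2 measured 538 kb, between evm.TU.Chr22.5155 and evm.TU.Chr22.5158 (99843047 to 100380761), and 514 kb, between evm.TU.Chr22.1124 and evm.TU.Chr22.1130 (20200667 to 20714448). On chromosome 21, the longest measured 706 kb, between evm.TU.Chr21.732 and evm.TU.Chr21.735 (13738107 to 14444448). The other 2 were of 313 kb, between evm.TU.Chr21.2174 and evm.TU.Chr21.2176 (42299506 to 42612381), and 291 kb, between evm.TU.Chr21.1053 and evm.TU.Chr21.1058 (20917614 to 21209091). Chromosome 21 thus had 1 gap of the size of the longest of chromosome 22, and its next ones were shorter than the third of chromosome 22.

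To locate the extra length, genes with at least 5 CDS segments were matched between the chromosomes by structure, that is, by an identical ordered list of internal CDS segment lengths that no other gene on a pseudochromosome shared. Of the 862 such genes on chromosome 22, 324 (37.6%) had their list on chromosome 21, and 324 of 847 (38.3%) had it in the other direction. Over all 22 pseudochromosomes, 47.2% of these genes had their list on the partner chromosome. Unique lists gave 281 gene pairs, called anchors, the lowest number of the 11 pairs of chromosomes (285 to 435 in the others). The CDS of the copies was of equal total length in 246 anchors (87.5%). The longest chain of anchors in the same order on both chromosomes held 226 of them, or 80.4%, which was also the lowest share of the 11 pairs (82.6 to 95.8% in the others). Rank order over all 281 anchors was nevertheless nearly the same on both, with Spearman's rho of 0.997 across genes, which are not independent replicates.

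Of the 281 anchors, 87 (31.0%) lay in opposite orientation on the chromosomes, against 25.8% over the 11 pairs. They formed 48 runs along chromosome 22, of which 26 were single genes. By span, the longest run went from evm.TU.Chr22.1791_evm.TU.Chr22.1792 to evm.TU.Chr22.1999, with 3 anchors over 4.48 Mb. The order of its genes was reversed in 1 of 2 steps. Its outer anchors belong to the chain and lie 0.262 Mb apart on chromosome 21, while the partner of the middle anchor lies at 35.8 Mb. The next ones went from evm.TU.Chr22.154 to evm.TU.Chr22.321, with 3 anchors over 2.46 Mb, and from evm.TU.Chr22.4662 to evm.TU.Chr22.4751, with 4 anchors over 1.51 Mb. Their gene order was reversed in 1 of 2 and in 2 of 3 steps. A denser run, chosen after its values were seen, went from evm.TU.Chr22.3460 to evm.TU.Chr22.3490 with 7 anchors over 0.817 Mb, and the order of its genes was reversed in 6 of 6 steps. Anchors outside the chain numbered 55 and fell into 24 blocks, 9 of them with at least 3 anchors.

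The collinear stretch runs from the anchor evm.TU.Chr22.3 (28141 to 48780) with evm.TU.Chr21.47 (2103106 to 2118041) to the anchor evm.TU.Chr22.5379 (106605134 to 106608069) with evm.TU.Chr21.4815 (90009840 to 90012707). It measured 107 Mb on chromosome 22 and 87.9 Mb on chromosome 21, a difference of 18.7 Mb. This was the highest of the 11 pairs (0.0534 to 12.8 Mb in the others), a rank that largely restates how the pair was chosen. The ends outside it nearly cancelled each other. Before the first anchor, chromosome 22 had 0.0385 Mb and chromosome 21 had 2.11 Mb with 32 genes. After the last, chromosome 22 had 2.42 Mb with 44 genes, against 0.864 Mb with 16 genes on chromosome 21.

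Between neighbouring collinear anchors there were 225 intervals, 123 of them longer on chromosome 22 and 102 longer on chromosome 21. The median interval was 218 kb on chromosome 22 and 191 kb on chromosome 21, and the median of the ratio within an interval was 1.07 (0.995 to 1.03 in the other 10 pairs). A limit of 100 kb left 55 intervals (24.4%) that were longer on chromosome 22 by at least that much, against 15.2% of the intervals over the 11 pairs for the longer chromosome. Another 33 intervals (14.7%) were longer on chromosome 21 by at least 100 kb, against 11.1% for the shorter chromosome over the 11 pairs. The number of 55 was the highest of the 11 pairs but close to theirs (38 to 54), while the sum of all intervals longer on chromosome 22, 35.6 Mb, lay further above them (12.8 to 29.2 Mb). Intervals longer on chromosome 21 took back 17.0 Mb, and the 137 intervals within 100 kb of each other came to -0.0698 Mb in all. The 10 largest excesses of chromosome 22 summed to 19.2 Mb, or 54.0% of the 35.6 Mb.

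Inside the 55 intervals longer on chromosome 22 there were 1305 genes in 60.6 Mb of chromosome 22 and 776 genes in 27.2 Mb of chromosome 21, so that the extra length came both with more genes and with fewer genes per Mb (21.5 on chromosome 22 and 28.5 on chromosome 21). They held 124 gaps of at least 100 kb on chromosome 22 and 34 on chromosome 21. These intervals were selected for their greater length on chromosome 22, so lower density and more long gaps there follow in part from the selection. Over all 225 intervals, chromosome 22 had 23.5 genes per Mb and 198 such gaps, and chromosome 21 had 26.3 and 126. In the 33 intervals longer on chromosome 21 the densities were the other way round, with 27.7 genes per Mb on chromosome 22 and 24.8 on chromosome 21. The intervals within 100 kb of each other had 24.8 genes per Mb on chromosome 22 and 25.9 on chromosome 21, and nearly equal numbers of long gaps (36 on chromosome 22, 33 on chromosome 21).

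**Figure D2:**
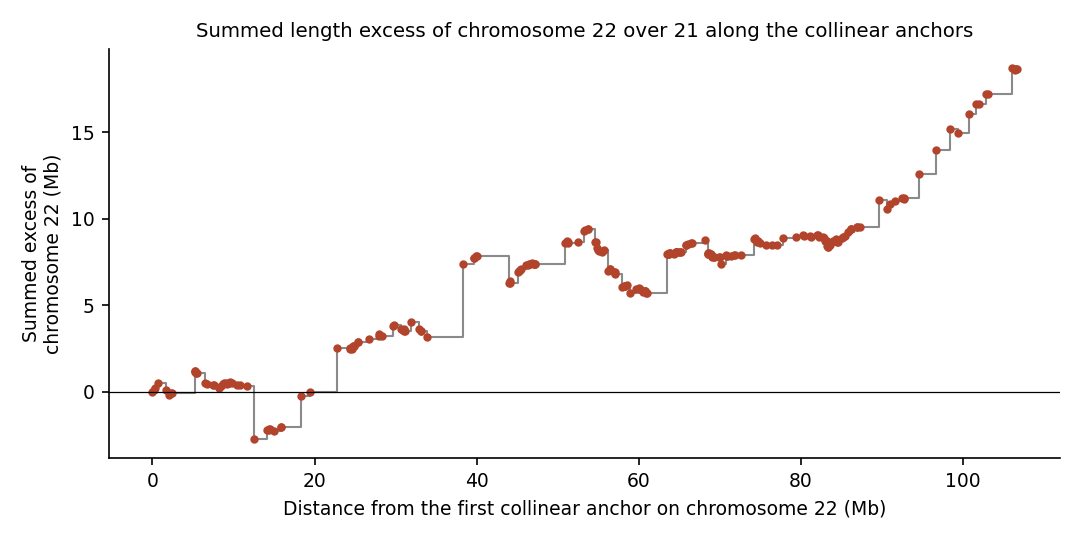
Length excess of chromosome 22 over chromosome 21 in Mb, summed from the first collinear anchor, against the distance from that anchor on chromosome 22 in Mb, with a point for each of the 226 collinear anchors. The sum falls to -2.75 Mb, climbs in steps to 9.43 Mb, falls to 5.69 Mb between 53.8 and 59.0 Mb and climbs again to 18.7 Mb.

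The largest excess, 4.22 Mb, lay between evm.TU.Chr22.1791_evm.TU.Chr22.1792 and evm.TU.Chr22.1999 (33912118 to 38395039 between their midpoints), whose counterparts are evm.TU.Chr21.1656 and evm.TU.Chr21.1673 (32816117 to 33077639). This interval measured 4.48 Mb with 110 genes on chromosome 22 and 0.262 Mb with 4 genes on chromosome 21. Of the 25 genes with at least 5 CDS segments that lay inside it on chromosome 22, 2 had their structure on chromosome 21, 2 had it on an unplaced scaffold, including 1 that had it in both places, and 22 had it nowhere else in the annotation. The collinear anchors that bound an interval are not counted among its genes, and over all 225 intervals 98 of 623 such genes of chromosome 22 (15.7%) had their structure on chromosome 21. Over the whole of chromosome 22, these anchors included, 466 of 862 such genes had their structure nowhere else in the annotation. On an unplaced scaffold 87 of the 862 (10.1%) had it.

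The second, 2.54 Mb, lay between evm.TU.Chr22.1105 and evm.TU.Chr22.1220 (19509778 to 22777481), opposite evm.TU.Chr21.1078 and evm.TU.Chr21.1117 (21575858 to 22300239). It held 60 genes in 3.27 Mb of chromosome 22, including the gap of 514 kb named above, and 19 genes in 0.724 Mb of chromosome 21. None of its 17 genes with at least 5 CDS segments on chromosome 22 had a counterpart of the same structure on chromosome 21, and 4 had one on an unplaced scaffold. Among all such genes from 19.5 to 29.8 Mb of chromosome 22, 19 of 77 (24.7%) had one on an unplaced scaffold.

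The third excess, 2.27 Mb, lay between evm.TU.Chr22.3173 and evm.TU.Chr22.3282 (60982320 to 63462391), opposite evm.TU.Chr21.2971 and evm.TU.Chr21.2985 (57332846 to 57542685). On chromosome 22 it held 48 genes, 7 of them anchors outside the chain whose partners lay from 52.8 to 54.5 Mb on chromosome 21. The fourth, 1.81 Mb, lay between evm.TU.Chr22.930 and evm.TU.Chr22.1044 (15881513 to 18310773), opposite evm.TU.Chr21.1003 and evm.TU.Chr21.1035 (20020323 to 20641681), and held 5 such anchors with partners from 14.97 to 16.04 Mb. These anchors are genes of chromosome 22 whose counterparts lay on chromosome 21 outside the matching interval. Anchors outside the chain also lay on chromosome 22 in 4 of the other 6 intervals among the 8 largest excesses, with 1 to 3 in each.

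The other 4 of the 8 largest excesses lay toward the far end of chromosome 22. They were 1.59 Mb between evm.TU.Chr22.4584 and evm.TU.Chr22.4692 (87290420 to 89598428), opposite evm.TU.Chr21.4242 and evm.TU.Chr21.4286, and 1.49 Mb between evm.TU.Chr22.5262 and evm.TU.Chr22.5344 (103030477 to 106004242), opposite evm.TU.Chr21.4701 and evm.TU.Chr21.4774. The remaining ones were adjacent, with 1.41 Mb between evm.TU.Chr22.4872 and evm.TU.Chr22.4948 (92766004 to 94584617), opposite evm.TU.Chr21.4461 and evm.TU.Chr21.4490, and 1.37 Mb from there to evm.TU.Chr22.5049 (96721526), opposite evm.TU.Chr21.4528. In 7 of the 8 largest excesses, all but the first, the genes were in a lower ratio than the lengths. Among the 4 far intervals, that from evm.TU.Chr22.5262 came closest in gene number, with 39 genes in 2.97 Mb of chromosome 22 and 34 genes in 1.48 Mb of chromosome 21. The other 3 held 50, 31 and 44 genes on chromosome 22, against 23, 15 and 19 on chromosome 21, in the order of their excess.

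The largest excess of chromosome 21 was an interval of 0.844 Mb with 32 genes between evm.TU.Chr22.714 and evm.TU.Chr22.767 on chromosome 22, against 3.93 Mb with 83 genes between evm.TU.Chr21.711 and evm.TU.Chr21.872 (13451621 to 17380544) on chromosome 21, a difference of -3.08 Mb. On chromosome 21 its gap of 706 kb is the longest of chromosome 21, and 9 anchors outside the chain lay in it with partners from 11.5 to 17.8 Mb on chromosome 22, among them the 5 anchors of the fourth excess above. The following excesses of chromosome 21 were smaller. They were -1.55 Mb between evm.TU.Chr22.2083 and evm.TU.Chr22.2287 (opposite evm.TU.Chr21.1747 and evm.TU.Chr21.2012), -1.19 Mb between evm.TU.Chr22.2911 and evm.TU.Chr22.2936 (opposite evm.TU.Chr21.2552 and evm.TU.Chr21.2635), and -0.811 Mb between evm.TU.Chr22.3490 and evm.TU.Chr22.3513_evm.TU.Chr22.3514 (opposite evm.TU.Chr21.3181 and evm.TU.Chr21.3234).

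Grouped along the chromosome in steps of 10 Mb, the excess concentrated in a pair of stretches. The chain was divided into 11 sections at the collinear anchors nearest to each 10 Mb of chromosome 22, a division made after the intervals had been seen. Sections 3 and 4 (19.51 to 39.98 Mb) measured 20.5 Mb on chromosome 22 and 12.6 Mb on chromosome 21, and their excess of 7.84 Mb was 42.0% of that of the whole chain. Sections 10 and 11 (89.6 to 106.6 Mb) measured 17.0 Mb on chromosome 22 and 9.45 Mb on chromosome 21, and contributed 7.55 Mb (40.5%). The other 7 sections, 69.1 Mb of chromosome 22, contributed 3.28 Mb (17.5%), and 2 of them, the second and the sixth, were shorter on chromosome 22, with differences of -0.497 and -2.61 Mb.

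The stretch of sections 3 and 4 and that of sections 10 and 11 differed in what the extra length held. In sections 3 and 4, chromosome 22 had 515 genes and chromosome 21 had 331, which is 1.56 times the genes over 1.62 times the length, and the pooled densities were 25.2 genes per Mb on chromosome 22 and 26.2 on chromosome 21. The 2 sections were not alike. Section 3 had 22.9 genes per Mb on chromosome 22 and 27.0 on chromosome 21, with a mean gap 1.20 times as long and 9 more gaps of at least 100 kb on chromosome 22, and section 4 had 27.4 genes per Mb on chromosome 22 and 25.3 on chromosome 21. The excess came to 62.9 kb for each additional gene in section 3, to 32.5 kb in section 4 and to 42.6 kb in both together. In sections 10 and 11, chromosome 22 had 36 genes more, and the excess came to 210 kb for each of them. Section 11 had 108 genes in 7.26 Mb of chromosome 22 and 106 genes in 3.57 Mb of chromosome 21, which is nearly the same number of genes over 2.04 times the length.

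**Figure D3:**
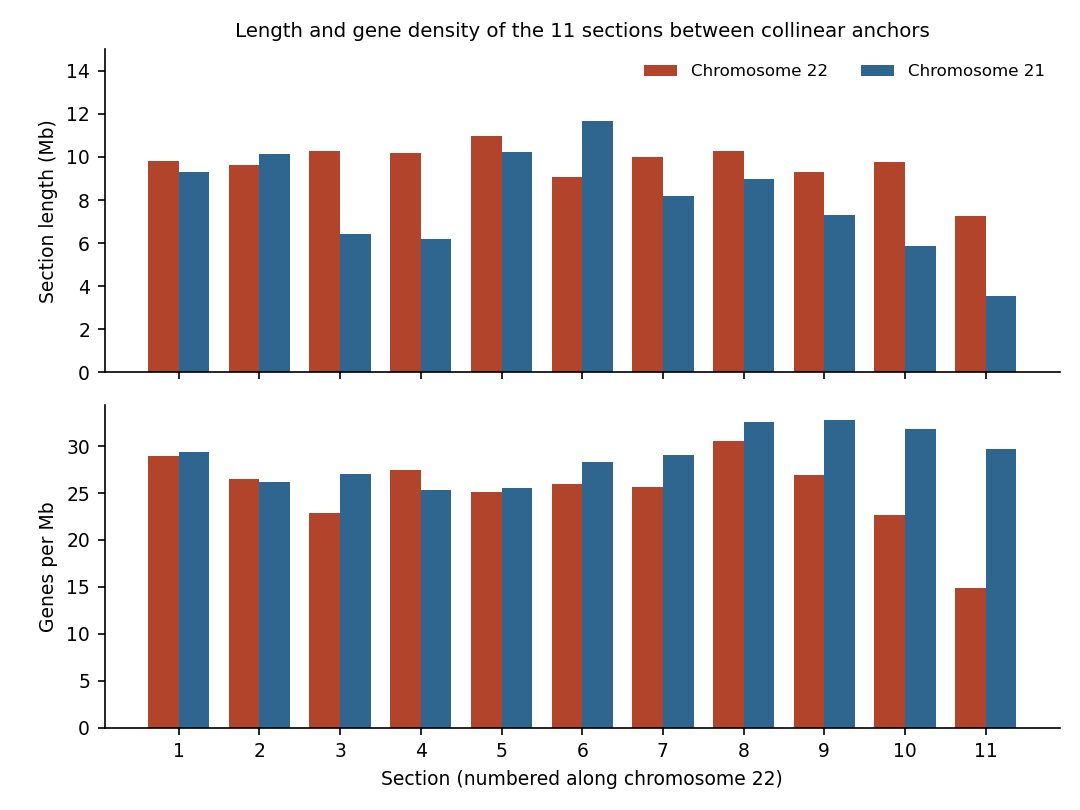
Length in Mb (top) and genes per Mb (bottom) of the 11 sections between collinear anchors, numbered along chromosome 22, on chromosome 22 (red) and chromosome 21 (blue). Chromosome 22 is the longer in sections 3 and 4, with 22.9 and 27.4 genes per Mb against 27.0 and 25.3 on chromosome 21, and the longer in sections 10 and 11, with 22.7 and 14.9 against 31.8 and 29.7 on chromosome 21.

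The far end of chromosome 22 was thinly set with genes. With the anchor between them counted, sections 10 and 11 held 330 genes at 19.4 per Mb on chromosome 22 and 294 genes at 31.1 per Mb on chromosome 21, against 26.7 and 28.2 per Mb on the rest of chromosome 22 and chromosome 21 before these sections. The mean gap was 48.9 kb on chromosome 22 and 29.9 kb on chromosome 21, and the median gap was 25.3 kb on chromosome 22 and 19.3 kb on chromosome 21. Gaps of at least 100 kb numbered 43 (8.13 Mb) on chromosome 22 and 13 (1.76 Mb) on chromosome 21, a difference of 6.36 Mb set beside the length difference of 7.55 Mb. Gene bodies differed by 0.198 Mb. Of the 20 anchor intervals in this stretch, 15 were longer on chromosome 22 and 5 on chromosome 21. The 5 largest excesses among them summed to 6.58 Mb, or 77.4% of the 8.50 Mb by which those 15 were longer, and another 5 of the 15 exceeded chromosome 21 by less than 100 kb each.

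Gene structure in the far stretch was compared next. The share of genes with at least 5 CDS segments whose list was on the partner was 37.1% on chromosome 22 and 40.4% on chromosome 21, close to the shares over the rest (38.1% on chromosome 22 and 38.0% on chromosome 21). The median intron was 106 bp on chromosome 22 and 101 bp on chromosome 21, a ratio of 1.05. The mean intron was 512 bp on chromosome 22 and 308 bp on chromosome 21, a ratio of 1.66. Over the rest the mean intron was 484 bp on chromosome 22 and 498 bp on chromosome 21. The ratio of means thus came mostly from the low value of chromosome 21. Summed introns differed by 0.202 Mb there. Mean CDS length was 889 bp on chromosome 22 and 1039 bp on chromosome 21, against 1058 bp and 1080 bp over the rest of each, and UTRs were annotated in 41.8% of genes on chromosome 22 and 49.0% on chromosome 21. The mean number of exons was 4.02 on chromosome 22 and 4.39 on chromosome 21.

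Set beside all other chromosome ends, this end stood apart. The last 15 Mb of chromosome 22 held 16.9 genes per Mb, and the last 15 Mb of the other 21 pseudochromosomes held 26.2 to 31.3, with chromosome 21 at the top of that range. With windows of 10 Mb the value was 15.9 for chromosome 22 against 25.3 to 30.9 for the others, and with 20 Mb it was 19.6 against 25.9 to 31.5. The opposite end was not thin, with 29.3 genes per Mb in the first 15 Mb of chromosome 22 and 27.2 in that of chromosome 21 (23.6 to 33.9 over all 22). Moved in steps of 1 Mb along every pseudochromosome, a window of 15 Mb had its lowest value, 16.8 genes per Mb, on chromosome 22 from 94 Mb, and the next lowest, 19.7, on chromosome 1. The stretch was singled out after its values were seen, and no test was made of it.

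**Figure D4:**
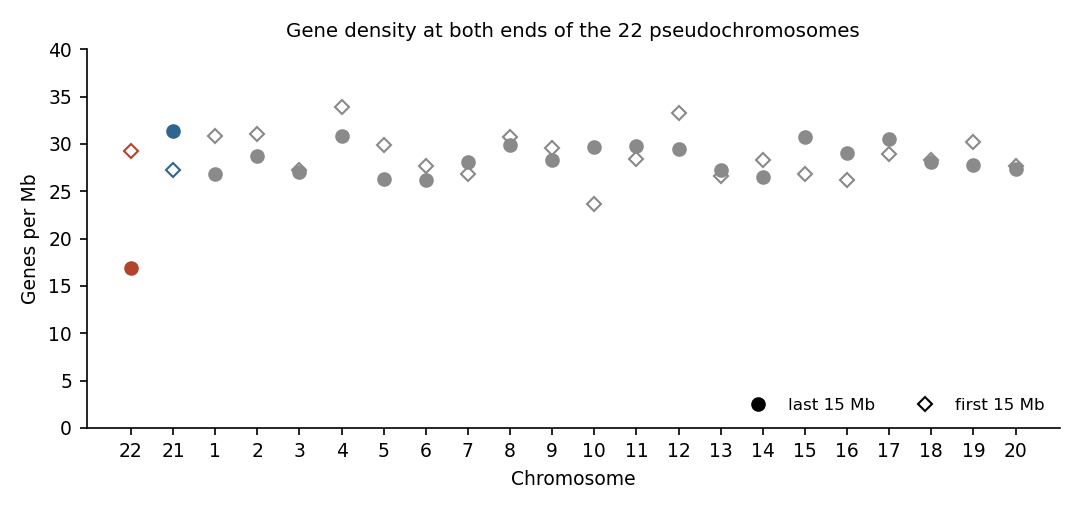
Genes per Mb in the last 15 Mb (filled circles) and the first 15 Mb (open diamonds) of the 22 pseudochromosomes, with chromosome 22 in red, chromosome 21 in blue and the others in grey. The last 15 Mb of chromosome 22 holds 16.9 genes per Mb, and every other end shown holds at least 23.6.

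Where gene order was fully kept, gap lengths were nearly equal in sum. For this comparison, genes were matched by identical lengths of all CDS segments with at least 2 segments, and only gaps whose bounding genes were neighbours on both chromosomes were used. There were 50 such gaps, which summed to 1.25 Mb on chromosome 22 and 1.27 Mb on chromosome 21, a ratio of 0.980. They include 1 overlap of genes, entered as -0.273 kb on chromosome 22 and -1.934 kb on chromosome 21, and so counted as longer on chromosome 22. Chromosome 22 had the longer gap in 23 cases, chromosome 21 in 25, and 2 were equal to the base. The differences ran from -63.0 to 52.3 kb, so none reached 100 kb, and 5 of the 50 gaps differed by at most 100 bp. The median of these gaps was 20.2 kb on chromosome 22 and 17.4 kb on chromosome 21. Single gaps thus differed, and the differences nearly cancelled in sum. In the other 10 pairs 82 to 136 gaps could be compared in this way, and the ratio of their sums ran from 0.960 to 1.18. Of the 50 gaps, 1 lay in section 10, with 33.7 kb on chromosome 22 and 51.6 kb on chromosome 21, and 0 lay in section 11, so they describe the best kept neighbourhoods only.

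Introns contributed little to the length of chromosome 22. The median intron was 105 bp on chromosome 22 and 103 bp on chromosome 21, below the highest of the 22 pseudochromosomes (108 bp), and the mean was 485 bp on chromosome 22 and 476 bp on chromosome 21. These means were the highest and the second highest of the 22 (378 to 471 bp in the others). A few long introns weigh on them. Introns over 20 kb numbered 17 on chromosome 22, with 0.876 of 4.65 Mb, and 15 on chromosome 21, with 0.948 of 4.45 Mb. They include the joined models described below, whose intron lengths are uncertain. Of 1868 introns compared between the copies of the 281 anchors, 1315 (70.4%) had exactly the same length, against 70.4% over the 11 pairs. Chromosome 22 had the longer intron in 271 cases and chromosome 21 in 282. A difference of at least 1 kb occurred in 2 introns that were longer on chromosome 22 and 7 that were longer on chromosome 21.

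In sum, the anchor introns were shorter on chromosome 22, by -232 kb, and 1 intron made up most of this. Intron 8 measured 84 bp in evm.TU.Chr22.1602 and 216551 bp in its counterpart evm.TU.Chr21.1472_evm.TU.Chr21.1482, and without it the sum was -15.9 kb. The identifier of the chromosome 21 copy joins a pair of gene identifiers, and 4 other genes lie inside the model (28957575 to 29177953), so the length of this intron is uncertain. It is the longest gene and holds the longest intron of chromosome 21. The longest gene and intron of chromosome 22, evm.TU.Chr22.1565_evm.TU.Chr22.1573 (29973924 to 30150167), is also a joined model, with an intron of 174 kb and 6 genes inside it.

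Other anchor introns differed by a few kb. Among those longer on chromosome 21, intron 7 measured 0.352 kb in evm.TU.Chr22.3357 and 5.47 kb in evm.TU.Chr21.3055, and intron 12 measured 5.87 kb in evm.TU.Chr22.3475 and 10.4 kb in evm.TU.Chr21.3206. Longer on chromosome 22 were intron 5 of the first collinear anchor, with 9.78 kb in evm.TU.Chr22.3 and 3.90 kb in evm.TU.Chr21.47, intron 17 of evm.TU.Chr22.4342, with 6.12 kb against 3.03 kb in evm.TU.Chr21.3993, and intron 5 of evm.TU.Chr22.15, with 4.30 kb against 3.78 kb in evm.TU.Chr21.54. The copies evm.TU.Chr22.4342 (82694007 to 82716908) and evm.TU.Chr21.3993 (75835303 to 75855140) are also the anchor with most CDS segments and the genes with most exons on their chromosomes. Each had 49 CDS segments that summed to 5211 bp, and 43 of their 46 compared introns were identical.

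Genes on scaffolds that the assembly did not place shared structures with chromosomes 22 and 21 more often than with any other pair. Of 861 unplaced genes with at least 5 CDS segments, 296 shared their list with 1 or 2 placed genes of a single pair, and 122 of these (41.2%) did so with chromosomes 22 and 21. Chromosomes 1 and 2 had 78, chromosomes 19 and 20 had 64, and the other 8 pairs had 1 to 6. The 122 genes lay on 41 scaffolds, and 44 of them shared their list with both chromosomes, 35 with chromosome 22 only and 43 with chromosome 21 only. Of the 79 that involved chromosome 22, 26 (32.9%) shared it with a gene inside the intervals at least 100 kb longer on chromosome 22, where 329 of the 862 chromosome 22 genes with at least 5 CDS segments (38.2%) lie.

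The matches kept to the first part of both chromosomes. All 79 matches to chromosome 22 lay from 0.351 to 42.7 Mb, although 480 of its 862 genes with at least 5 CDS segments lie beyond 45 Mb. Of the 87 that involved chromosome 21, all but 3 lay below 36.2 Mb. In section 1, 25 of the 100 genes with at least 5 CDS segments on chromosome 22 and 36 of the 106 on chromosome 21 had their structure on an unplaced scaffold, whatever other genes shared it. In section 4 the counts were 12 of 78 on chromosome 22 and 8 of 57 on chromosome 21, and in section 11 they were 0 of 36 and 0 of 33. The stretch of sections 3 and 4, where chromosome 22 carried 184 more genes, overlaps the part with such matches. Sections 1 and 2 lie in that part too, with length differences of 0.503 and -0.497 Mb. Section 2 had such matches for 21 of 89 genes on chromosome 22 and 20 of 91 on chromosome 21. Sections 10 and 11 together had 1 such gene on each chromosome by this wider count. A link between these matches and the extra length was not tested.

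**Figure D5:**
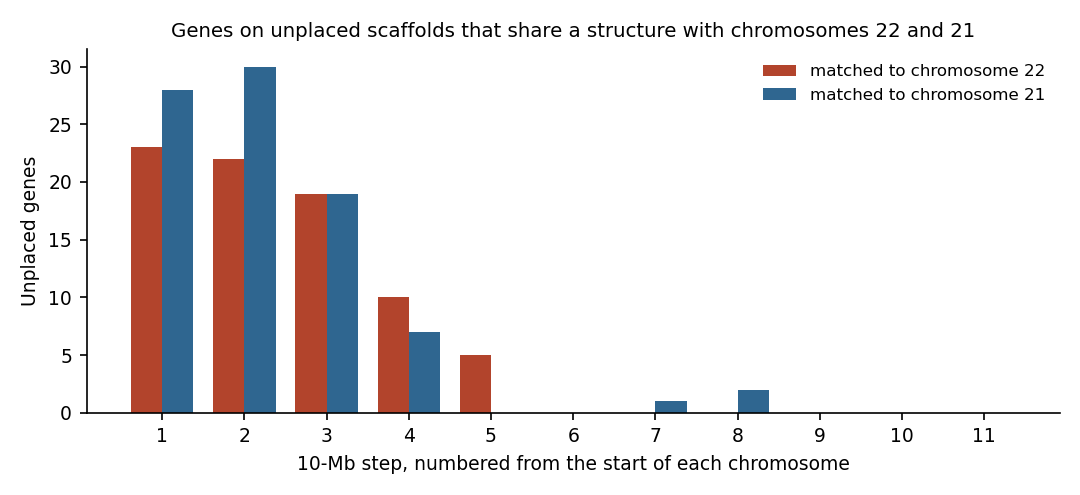
Number of genes on unplaced scaffolds that share their list of internal CDS segment lengths with chromosome 22 (red) or chromosome 21 (blue), by 10-Mb step from the start of each chromosome. The first 3 steps hold 23, 22 and 19 matches on chromosome 22 and 28, 30 and 19 on chromosome 21, and beyond the fifth step chromosome 21 has 3 and chromosome 22 none.

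Runs of matched genes on single scaffolds were examined next. At least 3 matched genes lay on each of 16 scaffolds, which together carried 622 genes and reached 21.3 Mb to their last genes. The scaffold from evm.TU.Scaffold3709.33 to evm.TU.Scaffold3709.137 had 12 matched genes among 78, at 7.563 to 9.502 Mb of chromosome 22 and 9.163 to 11.07 Mb of chromosome 21, except that evm.TU.Scaffold3709.117_evm.TU.Scaffold3709.119 matched evm.TU.Chr21.3739 at 71.4 Mb. The run from evm.TU.Scaffold3530.10 to evm.TU.Scaffold3530.57 had 9 matched genes among 27, at 24.4 to 24.9 Mb of chromosome 22 and 23.3 to 24.3 Mb of chromosome 21. The run from evm.TU.Scaffold3538.8 to evm.TU.Scaffold3538.131 had 8 among 70, at 31.9 to 33.8 Mb of chromosome 22 and 29.9 to 31.7 Mb of chromosome 21, and the run from evm.TU.Scaffold3697.2 to evm.TU.Scaffold3697.127 had 8 among 81, at 4.64 to 6.71 Mb of chromosome 22 and 6.65 to 8.53 Mb of chromosome 21.

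Copies on scaffolds were about as like chromosome 22 as chromosome 21. For 38 lists present once on each chromosome and once on a scaffold, 260 introns could be compared between all 3 copies. The scaffold copy had the intron length of the chromosome 22 copy in 172 cases (66.2%) and of the chromosome 21 copy in 176 (67.7%), while the copies on chromosomes 22 and 21 had equal lengths in 172 (66.2%). Of the 88 introns that differed between chromosomes 22 and 21, the scaffold copy equalled chromosome 22 in 20, chromosome 21 in 24 and neither in 44. In these 3 comparisons the share of identical introns was below the 70.4% of the 281 anchors. It was above that value in the scaffold genes matched to 1 chromosome only, with 186 of 251 introns (74.1%) for the 35 genes matched to chromosome 22 and 319 of 412 (77.4%) for the 43 matched to chromosome 21. Whether these scaffolds belong to chromosome 22, to chromosome 21 or to other copies of the region was not tested.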

How the data were processed

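Start and end positions in bp, counted from 1, are the values the authors deposited, in an annotation on their own assembly. By the methods, the authors merged Augustus and Genscan predictions, protein alignments by GeneWise and transcript models by PASA with Evidence Modeler. FastQC, HISAT2 and Cufflinks are named in the submitters' processing notes with no stated role. Versions of Augustus, Genscan, GeneWise, PASA and Evidence Modeler were not given in the sources used here, and depth per library was not analysed here. Each gene has 1 mRNA. Evidence differs along a genome, so gene density is a density of models.

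Chromosomes were paired by their shared structures. Anchors were genes with at least 5 CDS segments whose list of internal CDS segment lengths, in the direction of the gene, occurred once on each chromosome of a pair and on no other pseudochromosome. The collinear chain is the longest set of anchors rising in midpoint on both, and intervals run between midpoints. Gaps were measured between merged gene spans, introns of anchors between internal CDS segments. Gaps in the comparison of kept gene order could be negative where neighbouring genes overlapped. Values are longer minus or over shorter chromosome in each pair. No test was run, because there is 1 pair and genes are not replicates. Alternatives changed the number of CDS segments (4 or 8), the list (all segments), uniqueness, orientation, limits of 50 and 200 kb, gene model filters and intron limits, and a value was called moved when it differed by more than the SD over the 11 pairs, or a count by over 1.5 times. On simulated data of 1200 genes per chromosome the steps found 1200 anchors, 0 of them false, and 36 of the 36 inserted lengths that were checked. Only lengths between neighbouring anchors outside the reversed and moved blocks were checked. Lists were drawn at random there, so the simulation gives no rate of false anchors in real genes. Every simulated gene was an anchor, so the recovery of lengths among sparser and rearranged anchors was not assessed.

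The members, the rule and the gene lists were chosen with earlier results of these data known. The genes named were the outer collinear anchors and those bounding the 8 and 4 largest excesses and the 3 longest gaps of each chromosome. Also named were the longest gene, intron and most exons, and the anchors with most segments and most unequal introns. Named too were the outer genes of runs on scaffolds (4 of 16 are named) and of the 3 longest runs in opposite orientation. Computations used NumPy 2.4.6 and pandas 2.3.3 under Python 3.11.15, and figures used Matplotlib 3.10.9.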

Additional observations from a re-analysis of the deposited data

How the results depend on the processing

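No paired analysis was possible because the annotation holds no value per library and there is 1 library per tissue. Of 76 alternatives, 6 of them chosen after seeing the data, 61 were not called moved by the rule above, 15 moved their result and 0 reversed it. Counts were judged by a ratio, so some that were not called moved changed by more than the SD over the 11 pairs. The 55 intervals at least 100 kb longer on chromosome 22 became 41 with anchors in the same orientation only. They became 70 with a limit of 50 kb, where the SD was 5.80. The net excess of chromosome 22 over the collinear intervals depends only on the outermost anchors, so other anchor rules (18.6 to 18.7 Mb) could hardly change it, and it was 14.4 Mb without the largest interval. Without sections 10 and 11, an alternative chosen after seeing the data, it was 11.1 Mb, the ratio of mean gaps was 1.08 and the median ratio of intervals 1.03. Anchors of at least 8 CDS segments numbered 158 and gave a median ratio of intervals of 1.01. By any shared list, 33 unplaced genes matched chromosome 22 genes that lie inside the intervals longer on chromosome 22. With at least 8 CDS segments required for such a match, the number was 17. With at least 4 it was 44, which was not called moved although the SD was 9.75. A limit of 200 kb in place of 100 kb left 34 intervals. Counting only genes with at least 2 exons, the ratio of median gaps was 1.12. The share of genes inside the longer intervals with a counterpart on chromosome 21 was 17.9% (15.7% over all intervals), and it was 31.5% with at least 3 CDS segments and 3.04% when the counterpart had to lie in the matching interval. Identical anchor introns made up 85.1% with a tolerance of 5 bp. The summed intron difference of -232 kb was -20.9 kb with all CDS segments identical, -11.4 kb for introns of at most 20 kb and -15.9 kb without the intron that differs most, which was left out after seeing the data. Means in place of medians gave an intron difference of 9.20 bp. Lengths end at the last gene, assembly gaps and repeats were not analysed here. Beyond what each alternative leaves out by construction, the cause was not tested.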

Other observations

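Identifier numbers give a further description of the chromosomes. The highest number in a gene identifier was 5463 on chromosome 22 and 4853 on chromosome 21, and 48.8% of the numbers on chromosome 22 and 46.2% on chromosome 21 were not used by any gene. In sections 10 and 11 the unused share was 51.6% on chromosome 22 and 43.2% on chromosome 21. Over the 22 pseudochromosomes it ran from 44.1% to 48.8%. Models that name Evidence Modeler as their source, which carry no UTR, made up 51.6% of genes on chromosome 22 and 47.4% on chromosome 21, and chromosome 22 had the highest share of the 22. Single-exon genes made up 22.4% on chromosome 22 and 21.9% on chromosome 21, the highest and the second highest share of the 22. Their part in the differences of length and gene density was not tested.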
